A study of Mus musculus with 11 samples.

Results

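The proteasome and the E2 ubiquitin-conjugating enzymes of mouse embryonic stem cells were described by the nascent RNA of their genes. Members were the protein-coding genes of the exon-based table whose symbol begins with Psm, a letter from a to g and a number, or with Ube2. They were 76 of 13088 genes: 45 proteasome genes, 29 E2 genes and 2 others whose symbols fit the pattern, Psmc3ip, a recombination factor, and Ube2cbp, an E2-binding protein. For 49 of the 76 the second table held a region of upstream antisense RNA (uaRNA), out of 5867 such regions. The cells were F121-9, a wild-type female embryonic stem cell line from a cross of CAST and 129 mice, grown in SFES medium with LIF and inhibitors of MEK and GSK3. All were transfected with siRNA at 30 nM, either non-targeting (siNT, replicates 1, 2 and 3) or against Zc3h4 (siZC3H4, replicates 2 and 3). All were labelled with 500 µM 4-thiouridine (4sU) for 20 minutes and harvested at 47 hours. The labelled RNA was purified and sequenced (TT-seq), which reads RNA made during the labelling. The series also has 3 DMSO and 3 dTAG-13 samples of a degradable ZC3H4 line, which are not analysed here.

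Ubiquitin is activated by an E1 enzyme, passed to an E2 and placed on a target protein with the help of an E3 ligase, and the E2 often decides which kind of ubiquitin chain is built. The proteasome degrades the tagged proteins: a barrel-shaped core of alpha and beta rings holds the proteolytic sites, and a cap of ATPases and other subunits recognises, unfolds and feeds in the target. Its genes are known to be transcribed together through the factor encoded by Nfe2l1, which binds antioxidant response elements when proteasome activity falls. Promoters of such housekeeping genes commonly fire in both directions, and the short antisense product is the uaRNA. ZC3H4 with WDR82 forms the Restrictor complex, known for attenuating transcription of uaRNAs and other noncoding RNAs.

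Values are depth-normalized reads as deposited, that is, reads divided by 1 depth factor per library (1 to 1.767). Undivided, the libraries held 14840637 to 26548710 exon reads and 996927 to 2648683 uaRNA reads. Exon reads of Zc3h4 itself were 3465, 3610 and 3363 with siNT and 7285 and 6718 in the libraries labelled siZC3H4, a 2.01-fold rise (limma adjusted p = 0.0043, or 0.0549 without siNT replicate 1 and 0.0578 without siZC3H4 replicate 2). The label therefore could not be checked by a fall of the target in this nascent RNA, and each direction below is that of the libraries labelled siZC3H4. The markers were those of naive stem cells: Pou5f1 had 9079 ± 1259 (SD, n = 3) exon reads and Nanog 14446 ± 1225 in siNT. Of the fibroblast list, Fn1 stood at 31056 ± 2789 and Thy1 at 101 ± 29.3, and the other 3 were not analysed here. The neural markers had sums of 1310 to 1595 reads in siNT, and 1892 to 1944 in the other group. The primitive endoderm markers summed to 73.0 to 170 reads and 191 to 215. No gene of these lists passed the test in the exon table, and their part in the results was not tested. In such bulk libraries, fewer cells of a type and less RNA per cell cannot be told apart. The series' design text calls the replicates biological, but the labels do not name separate cultures. The p-values therefore measure the spread between these samples, which may be technical. Limma shares that spread across features, and its uaRNA test (67.5 degrees of freedom) draws mostly on all uaRNAs together.

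RefSeq promoters (GRCm38.p6) are shown for 3 of the 4 members with the highest uaRNA folds, Psmf1, Psmd9 and Ube2n, and for Psmb6, whose uaRNA did not pass the test. They were chosen after their values were seen. Each is the 250 bases before the RefSeq start, 5′ to 3′ on the strand of the gene, so the antisense RNA runs through it from right to left. Psmf1 is at chr2:151741311-151741560 (minus strand), Psmd9 at chr5:123227940-123228189 (plus strand), Ube2n at chr10:95514912-95515161 (plus strand) and Psmb6 at chr11:70525107-70525356 (plus strand). Capitals mark a match to the core of the antioxidant response element, TGACNNNGC.
Psmf1: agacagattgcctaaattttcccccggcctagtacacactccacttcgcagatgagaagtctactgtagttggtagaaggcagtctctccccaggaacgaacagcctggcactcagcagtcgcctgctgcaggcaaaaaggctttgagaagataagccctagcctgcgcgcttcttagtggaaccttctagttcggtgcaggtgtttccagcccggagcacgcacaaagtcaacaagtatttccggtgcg
Psmd9: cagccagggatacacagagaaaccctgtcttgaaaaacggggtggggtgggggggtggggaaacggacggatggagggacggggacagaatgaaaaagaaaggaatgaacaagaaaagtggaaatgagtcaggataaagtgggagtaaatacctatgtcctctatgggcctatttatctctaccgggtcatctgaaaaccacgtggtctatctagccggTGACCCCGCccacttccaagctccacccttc
Ube2n: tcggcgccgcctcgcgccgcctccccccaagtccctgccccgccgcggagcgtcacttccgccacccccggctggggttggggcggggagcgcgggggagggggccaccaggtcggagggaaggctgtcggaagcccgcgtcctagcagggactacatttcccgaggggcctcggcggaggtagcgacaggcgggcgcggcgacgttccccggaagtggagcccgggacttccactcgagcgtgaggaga
Psmb6: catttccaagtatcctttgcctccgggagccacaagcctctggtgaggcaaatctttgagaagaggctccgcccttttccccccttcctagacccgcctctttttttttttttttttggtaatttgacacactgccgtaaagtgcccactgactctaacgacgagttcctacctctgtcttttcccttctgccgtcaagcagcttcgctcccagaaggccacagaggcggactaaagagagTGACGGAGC
Psmd9 and Psmb6 each hold 1 such match, the first beginning 31 bases and the second 9 bases before the RefSeq start, while the printed windows of Psmf1 and Ube2n hold none.

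Before any comparison, the genes differed widely in how much nascent exon RNA they gave, even per length. In siNT, the core and cap genes stood high: the 30 subunits of the constitutive particle had a median of 1492 exon reads per kb of transcript, from 331 for the ATPase gene Psmc6 to 4361 ± 484 (SD, n = 3) for Psmb6, a catalytic subunit. Within the core, Psmb6 stood above the other catalytic genes, Psmb7 (2538 ± 80.1 reads per kb) and Psmb5 (941 ± 30.0). The alpha ring ran from 809 ± 113 (Psma2) to 2533 ± 209.7 (Psma7) and the structural beta genes from 1400.4 ± 52.7 (Psmb1) to 2758 ± 167 (Psmb4). Of neighbours in this order, Psmb4 and Psmb3 (2755 ± 343) lay within their spread, as did Psma2 and Psma1 (901 ± 84.3).

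The variant subunits stood far below. Psmb10, a catalytic subunit of the immunoproteasome that immune cells induce, had 165 ± 46.1 reads per kb, Psma8, an alpha subunit of male germ cells, 64.0 ± 13.5, and Psmb9, another immunoproteasome subunit, 7.05 ± 0.658. Psmb9 held 6, 6.09 and 5.12 reads with siNT and 13.6 and 11.5 in those labelled siZC3H4, and was the 1 member below the minimum of a mean of 10 reads, so it was not tested. Among the E2 genes, 2 stood out: Ube2s (4255 ± 899 reads per kb) and Ube2c (3456 ± 128), the E2s that extend and start ubiquitin chains for the anaphase-promoting complex in mitosis. Their spreads overlapped. The median of the 29 E2 genes was 329, and Ube2ql1 was lowest with 4.83 ± 2.73, on 21, 7.83 and 9.39 reads.

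**Figure D1:**
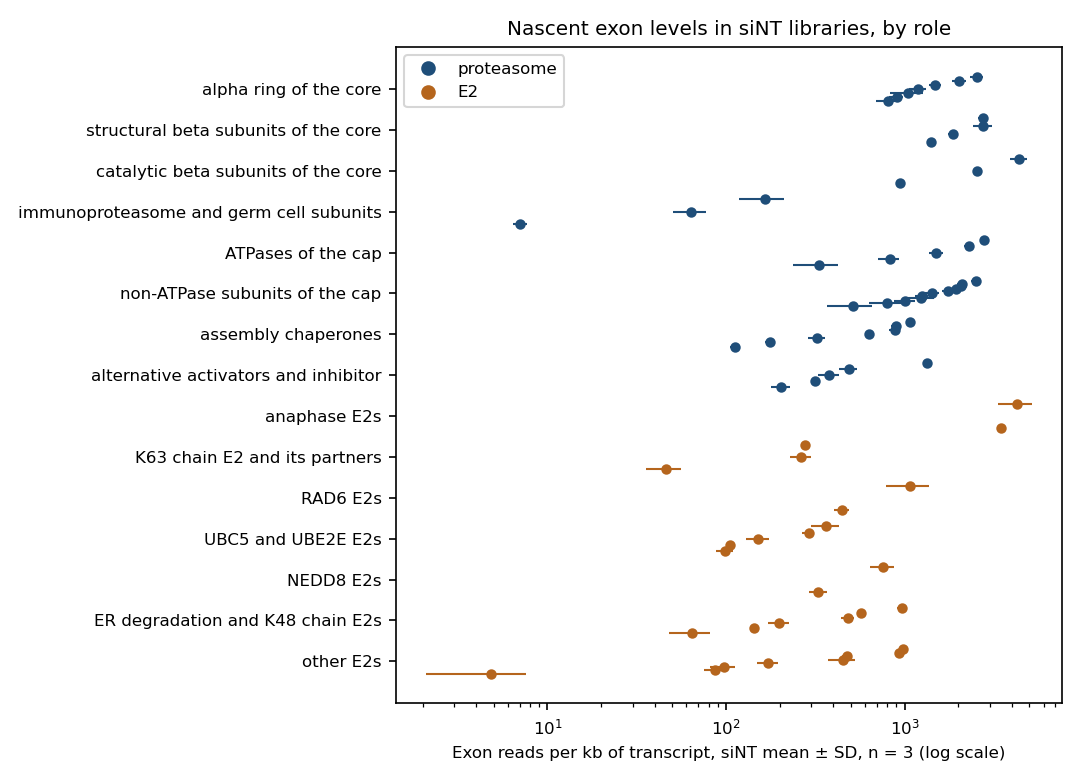
Nascent exon reads per kb of transcript in the siNT libraries (log axis; points are means and bars SD over 3 libraries) for 73 members grouped by role. Psmc3ip, Ube2cbp and 1 E2 gene are not drawn. The core and cap genes lie mostly near or above 1000 reads per kb, while the immunoproteasome and germ cell subunits lie at 165 or below.

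The exon comparison asked whether transcription of these genes differed after the Zc3h4 siRNA. No proteasome or E2 gene rose or fell. By limma (adjusted p under 0.05 over 12482 genes), 0 of 75 tested members rose and 0 fell, where 2.22% of all genes rose and 0.144% fell. By an unadjusted limma p under 0.05, 2 members differed, Psmg2 and Psmb10, as did 1915 of all 12482 genes. On the recovered reads, edgeR and DESeq2 likewise called 0 members and had 2 at an unadjusted p under 0.05. Over all genes, 1922 (edgeR) and 1759 (DESeq2) were under it. The members' median log2 difference was -0.03, beside 0.01 over all genes, with 31 members above 0 and 44 below. Both libraries labelled siZC3H4 lay above all siNT libraries for 7 tested members and below them for 11, and the groups overlapped for 57. Those above were Psma1, Psmg2, Psmg3, Psmd10, Ube2e3, Ube2o and Ube2r2. Those below were Psmb3, Psmc3, Psmb10, Psmd5, Psmg4, Ube2c, Ube2e1, Ube2e2, Ube2g1, Ube2k and Ube2n. Over all genes these separations held for 19.5% and 12.8%. The 45 proteasome genes together took 0.516%, 0.550% and 0.532% of all exon reads with siNT and 0.548% and 0.503% in the libraries labelled siZC3H4.

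The 30 constitutive subunits stayed within a narrow band. Their log2 differences ran from -0.20 (Psmb3) to 0.20 (Psma1), with a median of -0.04. For 29 of the 30, the 95% interval of the fold lay within 1.5-fold in either direction, against 60 of the 75 tested members and 49.5% of all genes. The median half-width of the interval was 0.29 on the log2 scale for these genes and 0.40 over all genes. Low reads widen an interval, and the sets were not matched for reads. The 1 exception was Psmc6, a cap ATPase, with 640, 576 and 964 reads under siNT and 645 and 863 in the libraries labelled siZC3H4. Its siNT replicate 3 was the highest of the 5 libraries, and the groups overlapped (log2 0.08 ± 0.23 SE).

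The catalytic genes show how close the groups were. Psmb6, which carries the caspase-like site, had 3488, 3932 and 3152 exon reads in siNT and 3887 and 3003 in the libraries labelled siZC3H4. Psmb7, with the trypsin-like site, had 2540, 2570.4 and 2421 against 2711 and 2433, and Psmb5, with the chymotrypsin-like site, 828, 869 and 818 against 857 and 739. The groups overlapped for all 3 genes, with intervals of the fold of 0.771 to 1.23, 0.855 to 1.23 and 0.77 to 1.17. In the cap, Psmd2, a large scaffold subunit, had 5725, 6412 and 6169 against 5999 and 5190.2, and Psmd14, the deubiquitinase that removes chains from targets, 596, 675 and 1003 against 754 and 824. Both overlapped (log2 -0.13 ± 0.12 SE and log2 0.09 ± 0.21 SE).

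The lowest difference of any member was that of Psmb10 (ENSMUSG00000031897, chromosome 8, 105935728 to 105939226, mm10, minus strand). It had 288, 458 and 293 exon reads under siNT and 229.8 and 163 in the libraries labelled siZC3H4. Both of the latter were below every siNT library, and siNT replicate 2 stood above the other siNT libraries. The fold was 0.575 (95% interval 0.389 to 0.849, limma adjusted p = 0.154). Psmg2, a chaperone that pairs with Psmg1 to assemble the alpha ring, was second highest (ENSMUSG00000024537, chromosome 18, 67641637 to 67654162, mm10, plus strand). It had 305, 317 and 373 reads against 499 and 478, with both libraries labelled siZC3H4 above every siNT library (1.48-fold, 95% interval 1.15 to 1.9, limma adjusted p = 0.119). Without siNT replicate 3, both passed the test: Psmb10 fell by 0.90 on the log2 scale (limma adjusted p = 0.0205) and Psmg2 rose by 0.65 (limma adjusted p = 0.0360). Over all 12482 genes, 676 rose and 138 fell without that library, where 277 rose and 18 fell in the main fit.

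The other assembly chaperones varied in sign. Psmg1, the partner of Psmg2, was at log2 0.16 ± 0.13 SE. Psmd10, a chaperone of the cap also known as gankyrin, had 156, 158 and 174 reads against 203 and 227, with no overlap (log2 0.40 ± 0.18 SE, limma adjusted p = 0.352). Psmg3 was at log2 0.28 ± 0.14 SE and its partner Psmg4 at log2 -0.19 ± 0.14 SE, again without overlap between groups for either. Psmd5 was at log2 -0.23 ± 0.12 SE and Psmd9 at log2 -0.03 ± 0.15 SE. Of the alternative activators, which open the core without the usual cap, Psme1, Psme2, Psme3 and Psme4 lay between -0.08 and 0.13 on the log2 scale, and the inhibitor gene Psmf1 at -0.04.

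Among the E2 genes the highest and lowest exon differences also missed the threshold. The highest was Ube2ql1, at 21, 7.83 and 9.39 reads against 18.7 and 21.03 (log2 0.72 ± 0.46 SE); siNT replicate 1 was about as high as either library labelled siZC3H4, so the groups overlapped. Ube2e3 had 529, 495 and 578 reads against 669 and 653 and its close relative Ube2e2 132, 161 and 133 against 112 and 108. Neither overlapped, and they lay on opposite sides of 0 (log2 0.31 ± 0.14 SE and log2 -0.36 ± 0.21 SE). Ube2g1, an E2 of endoplasmic reticulum degradation, had 537, 537 and 573 against 402 and 475 (log2 -0.33 ± 0.15 SE), and Ube2n, the E2 that builds K63-linked chains, 894, 969 and 1149 against 768 and 867 (log2 -0.29 ± 0.15 SE). Both were lower without overlap, and neither passed the test. The mitotic E2 genes Ube2c and Ube2s were at log2 -0.22 ± 0.12 SE and log2 -0.14 ± 0.19 SE, the RAD6 E2 genes Ube2a and Ube2b, which act in DNA damage tolerance, at -0.18 and 0.01. The UBC5 genes Ube2d1 and Ube2d2a, E2s that work with many E3 ligases, were at 0.02 and -0.02.

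**Figure D2:**
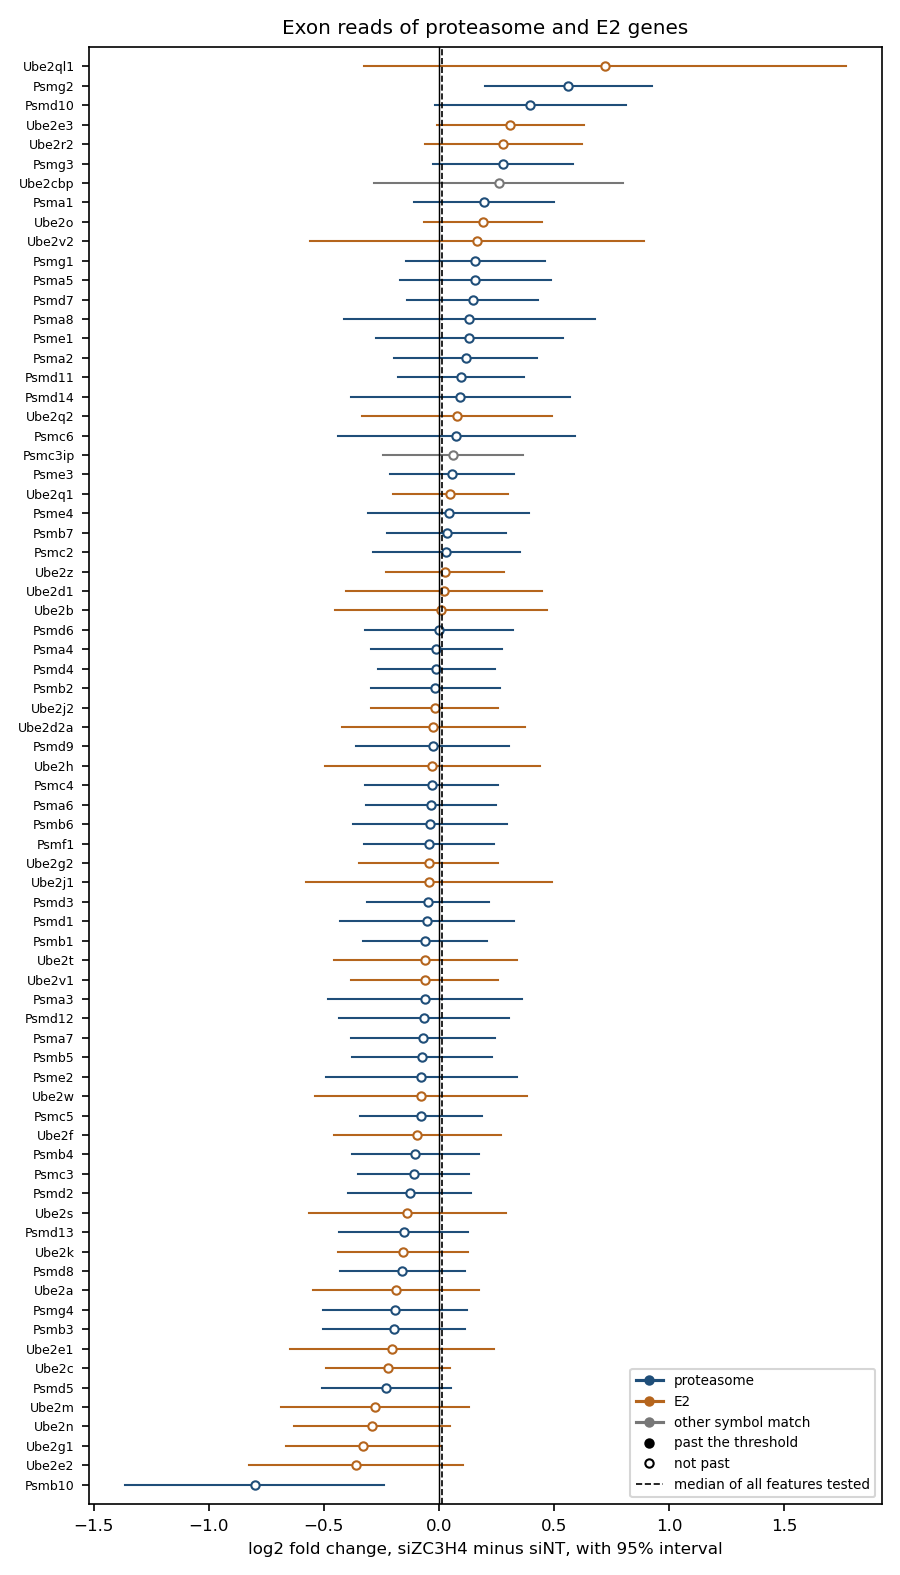
Log2 fold change of exon reads with 95% intervals (points and lines, libraries labelled siZC3H4 minus siNT, 2 against 3) for 74 of the 75 tested members, sorted. No point is filled, since 0 members passed the threshold, and the members run from -0.80 (Psmb10) to 0.72 (Ube2ql1) around the dashed median of all genes.

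The libraries of one group also differed with gene length. Across the 75 tested members, the log2 ratio of replicate 3 to replicate 2 went with the gene's span on the genome, with Pearson's r = 0.53 (Spearman's rho 0.58) between the libraries labelled siZC3H4 and 0.27 (0.34) between the siNT libraries. This is a description across genes that share their libraries. The 17 members spanning over 40 kb had a median ratio of 0.08 on the log2 scale in the libraries labelled siZC3H4 and 0.14 in siNT. The 23 members under 10 kb had -0.18 and -0.12. Its part in the exon differences was not tested.

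The uaRNA comparison asked the same of the antisense RNA leaving these promoters. With the deposited depth factors, 32 of 46 tested members rose (69.6%) and 0 fell, while 14 missed the threshold (limma, over 5124 uaRNAs), where 62.1% of all uaRNAs rose and 1.13% fell. When the uaRNA table was instead scaled on itself, the middle of all uaRNAs was set near 0. Then 4 members rose and 3 fell (median of ratios) or 6 rose and 3 fell (TMM). Over all 5124 uaRNAs, 527 rose and 600 fell by the median of ratios, and 548 rose and 576 fell by TMM. Under the deposited factors, the members' median was a log2 difference of 0.83, or 1.77-fold, beside 0.88, or 1.84-fold, over all uaRNAs. Without siZC3H4 replicate 2, it was 0.78 for members and 0.78 over all uaRNAs. Psmf1 and Psmd9 reached the minimum mean of 10 reads only through the libraries labelled siZC3H4. Ube2e1, Psmg3 and Psma8 had a region below the minimum and were not tested. Both libraries labelled siZC3H4 were above all siNT libraries for 38 members, below for 2 and overlapping for 6, against 73.7% above and 2.11% below over all uaRNAs. Among members, 17 rose at least 2-fold, as did 42.6% of all uaRNAs. By class, 18 of 27 proteasome uaRNAs and 13 of 18 E2 uaRNAs rose, with medians of 0.82 and 0.91. The remaining rise was that of Psmc3ip (0.67, below 0 on self-scaling). Without 1 siNT library, 27 to 31 members rose, as did 2848 to 3097 of all 5124 uaRNAs. Without 1 siZC3H4 library fewer passed, both among members and over all uaRNAs. How many of all uaRNAs kept the call whichever library was left out was not counted. Of the 32 risen members, the following lost the call without at least 1 library. Psmb3, Psmd3, Psmg4 and Ube2d2a lost it without siZC3H4 replicate 2 only, at log2 0.30 to 0.53, and Psmb7 and Psme4 without siZC3H4 replicate 3 only, at 1.22 and 0.84. Psma1, Psmc3ip, Psmc4, Psmd1, Psmd5, Psmg1 and Ube2m lost it without any of 2 to 4 libraries, at log2 0.34 to 0.81.

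The uaRNA of Psmf1 had the highest fold (ENSMUSG00000032869, chromosome 2, 151716062 to 151741275, mm10, minus strand). Psmf1 encodes PI31, a protein that binds the core and inhibits it in vitro. The uaRNA had 10, 5.22 and 6.83 reads under siNT and 53.8 and 30.6 in the libraries labelled siZC3H4. Both of the latter were above every siNT library, and replicate 2 was the higher. The rise was 5.12-fold (95% interval 2.73 to 9.61, limma adjusted p = 1.47e-05), on few siNT reads. The gene's exon reads, in contrast, were 1105, 1131 and 1086 against 1019 and 1135 and overlapped.

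Psmd9, a chaperone of the cap's ATPase ring, was second (ENSMUSG00000029440, chromosome 5, 123228252 to 123250126, mm10, plus strand). Its uaRNA went from 11, 7.83 and 6.83 reads to 38.5 and 32.5, again with no overlap and few siNT reads (3.87-fold, 95% interval 2.09 to 7.16, limma adjusted p = 0.000173). The uaRNAs of the other tested chaperone genes also rose, by log2 0.76 (Psmg1), 0.73 (Psmg4) and 0.60 (Psmd5), all under the deposited factors, while the 3 values were below 0 when the table was scaled on itself. Of the activators, the uaRNA of Psme4, which encodes PA200, rose from 47, 25.2 and 60.6 reads to 75.3 and 117 and that of Psme3, the nuclear activator PA28 gamma, from 132, 114 and 159.6 to 243 and 272. Neither overlapped (log2 1.15 ± 0.33 SE and log2 0.94 ± 0.25 SE). The uaRNA of Psme1, one of the interferon-induced PA28 activators, had 25, 24.3 and 20.5 against 27.7 and 22.9, overlapped and did not pass (log2 0.12 ± 0.39 SE).

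In the core particle, 5 of 9 tested uaRNAs rose under the deposited factors, where 62.1% of all uaRNAs did. That of Psmb4, a structural beta subunit, went from 58, 73.0 and 58.0 reads to 235 and 147 with no overlap (2.94-fold, 95% interval 1.99 to 4.34, limma adjusted p = 5.25e-06). That of the catalytic gene Psmb7 went from 12, 12.2 and 19.6 to 34.5 and 44.0, on lower reads and a wider interval (2.62-fold, 95% interval 1.5 to 4.58, limma adjusted p = 0.00251). The uaRNAs of the alpha genes Psma6 and Psma1 rose by log2 1.04 and 0.79, and that of Psmb3 by 0.82, all under the deposited factors; the values of Psma1 and Psmb3 were below 0 when the table was scaled on itself. For Psmb3, siZC3H4 replicate 3 (99.4 reads) was barely above siNT replicate 1 (99), and without siZC3H4 replicate 2 its value was 0.30 on the log2 scale (limma adjusted p = 0.486). Those of Psmb2 (log2 0.49 ± 0.34 SE) and Psma3 (log2 0.45 ± 0.31 SE) did not pass.

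In the cap, 5 of 8 tested non-ATPase uaRNAs and 1 of 2 ATPase uaRNAs rose, again beside 62.1% of all uaRNAs. The uaRNA of Psmd2 went from 73, 64.3 and 73.4 reads to 197 and 228, and here replicate 3 was the higher library labelled siZC3H4 (2.99-fold, 95% interval 2.06 to 4.35, limma adjusted p = 1.83e-06). The uaRNAs of Psmd12, a lid subunit, and of Psmd14 rose by log2 1.20 and 1.19, those of Psmd1 and Psmd3, scaffold subunits, by 0.81 and 0.74 under the deposited factors and with values below 0 on self-scaling. The uaRNA of the ATPase gene Psmc4 rose likewise, by 0.83 (limma adjusted p = 0.0419), from 22, 23.5 and 27.3 reads to 57.2 and 33.5, and was also below 0 on self-scaling. That of the ATPase gene Psmc6 did not pass (log2 0.23 ± 0.46 SE) and overlapped. Psmd4, the ubiquitin receptor of the cap, and Psmd8 lay at log2 0.83 ± 0.42 SE and log2 0.82 ± 0.43 SE without passing, both with fewer than 20 reads in each siNT library.

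The uaRNAs of 3 proteasome genes had differences below 0. They rose neither with the deposited factors nor with the median-of-ratios or TMM factors of the uaRNA table. Above 0 lay 43 of the 46 tested members, beside 4686 of all 5124 uaRNAs. The uaRNA of Psmb1 (ENSMUSG00000014769, chromosome 17, 15475021 to 15498243, mm10, minus strand) had 458, 483 and 491 reads in siNT and 349 and 449 in the libraries labelled siZC3H4. That of Psmd7, a lid subunit that pairs with Psmd14 (ENSMUSG00000039067, chromosome 8, 107580381 to 107588429, mm10, minus strand), had 212, 274 and 209 against 208 and 173. In both, each library labelled siZC3H4 was below every siNT library, and neither passed the test (log2 -0.27 ± 0.22 SE and log2 -0.28 ± 0.24 SE). Another gene starts 1645 bases upstream of Psmb1 on the opposite strand, and its exon reads were at log2 -0.15. Whether the uaRNA reads of Psmb1 include RNA of that gene was not tested. The uaRNA of Psmb6, whose promoter is printed above (ENSMUSG00000018286, chromosome 11, 70525376 to 70527649, mm10, plus strand), had 78, 55.7 and 60.6 against 53.8 and 62.1 and overlapped (log2 -0.15 ± 0.31 SE). The upper bounds of their intervals, 1.13-fold, 1.16-fold and 1.38-fold, lay below the 1.84-fold median of all uaRNAs, as did that of Ube2e3 and of no other tested member. How many of all uaRNAs have such an interval was not counted. Scaled on itself, the uaRNA table gave all 3 as fallen, at log2 -1.17 (Psmb1), -1.17 (Psmd7) and -1.03 (Psmb6) by the median of ratios. By those factors, 600 of all 5124 uaRNAs fell.

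Of the E2 uaRNAs, 13 of 18 rose under the deposited factors, beside 62.1% of all uaRNAs. In the K63 system 2 of 3 rose. Ube2n (ENSMUSG00000074781, chromosome 10, 95515205 to 95545657, mm10, plus strand) had 346, 303 and 319 uaRNA reads in siNT and 1366 and 909 in the libraries labelled siZC3H4. No library overlapped, and the rise had the smallest p of any member (3.45-fold, 95% interval 2.54 to 4.68, limma adjusted p = 9.73e-10). In both libraries labelled siZC3H4 its antisense region held more reads than its exons (768 and 867). The uaRNA of Ube2v1, a catalytically inactive partner that lets Ube2n join ubiquitins through K63, went from 75, 69.6 and 67.4 to 304 and 156 (3.05-fold, limma adjusted p = 2.33e-06). The uaRNA of the other partner, Ube2v2, had 74, 60 and 75.1 against 83.8 and 116, which did not overlap and did not pass (log2 0.50 ± 0.29 SE). Whether the 2 partners' differences differ from each other was not tested.

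Of the E2s of endoplasmic reticulum degradation, Ube2g2 had the highest uaRNA fold of any E2 (ENSMUSG00000009293, chromosome 10, 77622374 to 77645990, mm10, plus strand), from 59, 45.2 and 52.9 reads to 227 and 167 with no overlap (3.69-fold, 95% interval 2.49 to 5.47, limma adjusted p = 1.37e-07). Its paralog Ube2g1 went from 228, 223 and 220.1 to 534 and 520.1 (log2 1.23 ± 0.23 SE), while its exon reads were lower. Ube2j2, a membrane-anchored E2, and Ube2k, which builds K48-linked chains, rose by log2 0.93 and 0.88, the latter at -0.015 with median-of-ratios factors taken from the uaRNA table. The CDC34-type Ube2r2 did not pass (log2 0.53 ± 0.29 SE). The NEDD8 E2 genes, whose products conjugate a ubiquitin-like protein to cullins, had uaRNAs that rose as well. That of Ube2m went from 1124, 1151 and 819 to 1845 and 1288 reads without overlap, a rise of log2 0.60 under the deposited factors and a value below 0 when the table was scaled on itself. That of Ube2f went from 73, 72.2 and 87.9 to 164 and 157 reads (log2 1.04 ± 0.27 SE).

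The mitotic E2 Ube2s had the most uaRNA reads of any member, 1844, 1367 and 1869 in siNT and 3107 and 2880.5 in the libraries labelled siZC3H4 (1.78-fold, limma adjusted p = 0.000262). Those groups did not overlap. Ube2q2 and Ube2t, the E2 of the Fanconi anaemia repair pathway, rose by log2 1.30 and 1.11, and Ube2d2a by 0.75; the values of Ube2s and Ube2d2a turned below 0 on self-scaling. Ube2d2a has a near-identical copy, Ube2d2b, so the share of reads from each is uncertain. Ube2e3 (log2 0.32 ± 0.28 SE), Ube2z (log2 0.35 ± 0.27 SE) and Ube2w (log2 0.43 ± 0.39 SE) did not pass and overlapped. Over all members, 20 of 46 lay above the median of all uaRNAs. For 7 of them, Psmf1, Psmd9, Ube2g2, Ube2n, Ube2v1, Psmd2 and Psmb4, the whole 95% interval did. Of these, Psmf1 and Psmd9 met the minimum mean only through the libraries labelled siZC3H4, which favours a rise. How many of all uaRNAs have an interval wholly above that median was not counted.

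**Figure D3:**
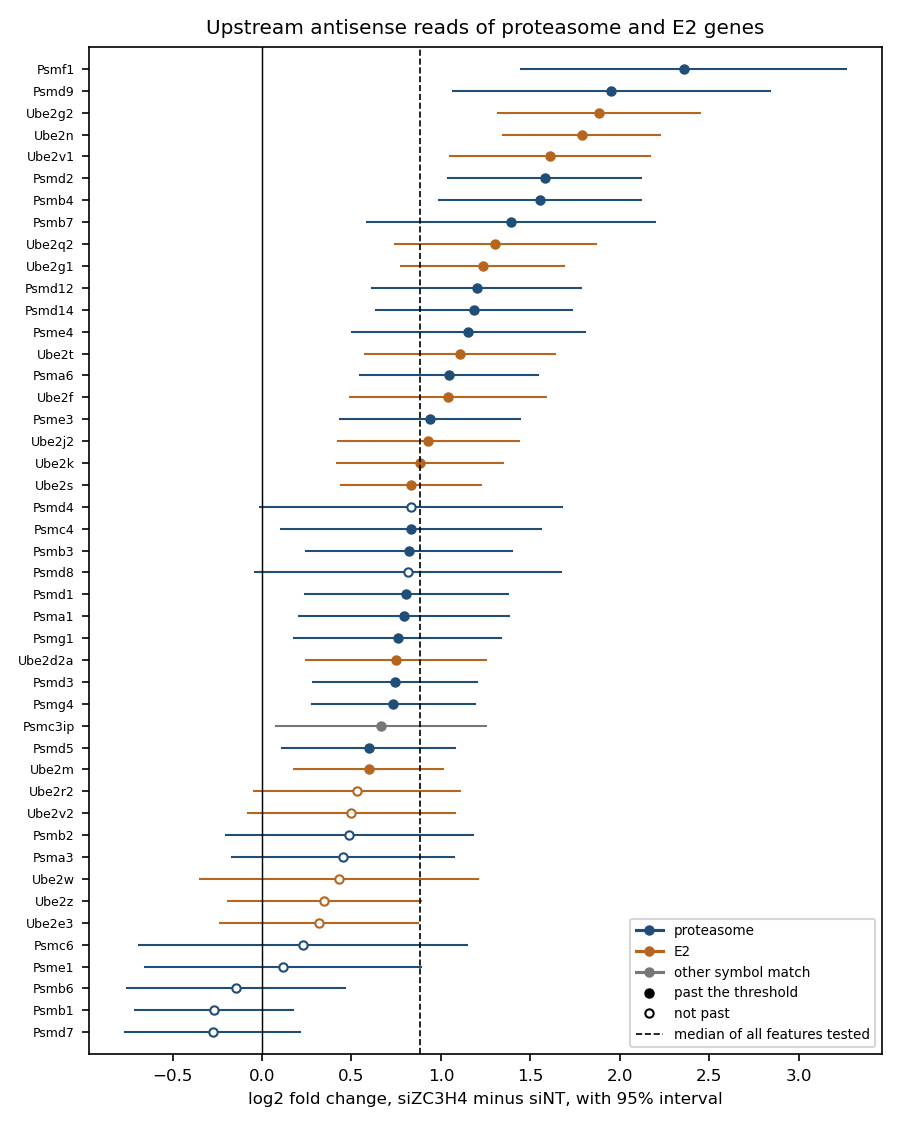
Log2 fold change of uaRNA reads with 95% intervals under the deposited depth factors (libraries labelled siZC3H4 minus siNT, 2 against 3) for 45 of the 46 tested members, sorted, with filled points past the threshold. The 31 filled points run from 0.60 (Ube2m) to 2.36 (Psmf1), and the dashed line marks the median of all uaRNAs, 0.88. That median moves to about 0 when the table is scaled on itself, so that 4 to 6 members rise and 3 fall. Of all 5124 uaRNAs, 527 to 548 then rise and 576 to 600 fall.

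The ratio of uaRNA to exon reads of a gene tests whether the antisense side differed from the sense side, and a depth factor shared by both tables cancels in it. Lengths of the uaRNA regions are not given, so ratios are of reads, not per length. Antisense rose against sense for 28 of 46 members and fell for 0 (limma, over 5106 pairs), where 53.9% of all pairs rose and 1.23% fell. The median was log2 0.90, beside 0.87 over all pairs. Without siZC3H4 replicate 2, it was 0.81 for members and 0.74 over all pairs. Of the 32 uaRNAs that rose, 27 also rose in the ratio. Psma1, Psmc4, Psmg1, Psmc3ip and Ube2d2a did not, and Psmd8 rose in the ratio alone (0.97, limma adjusted p = 0.0401). Psmf1 and Psmd9, named below, met the minimum mean of uaRNA reads only through the libraries labelled siZC3H4, which favours a rise. Without 1 siNT library, 22 to 26 members rose in the ratio, as did 2224 to 2679 of all 5106 pairs. Without siZC3H4 replicate 2 fewer passed, among members and over all pairs, and the members' lost calls were at log2 0.57 to 1.26. Those of Psmb7 and Ube2k were lost without siZC3H4 replicate 3 only, at 1.11 and 0.85. Psmf1, Psmd9, Psmd2, Psmb4, Ube2n, Ube2g2, Ube2g1 and Ube2v1 kept the call whichever library was left out. How many of all pairs did so was not counted.

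The antisense share varied widely among members. In siNT the median ratio of uaRNA to exon reads was 0.0718, from 0.0043 (Psmd4) to 1.26 (Ube2v2). In the libraries labelled siZC3H4 the median was 0.130 and the highest 2.01 (Ube2m). For Ube2m the ratios were 1.17, 1.09 and 1.05 in siNT and 2.08 and 1.95 in the libraries labelled siZC3H4. With Ube2v2 it had more antisense than exon reads in every library. For Ube2n the ratio was 0.387, 0.313 and 0.278 against 1.78 and 1.05 (log2 2.08 ± 0.30 SE, limma adjusted p = 0.000345). For Psmf1 it was 0.00905, 0.00461 and 0.00628 against 0.0528 and 0.027 (log2 2.40 ± 0.40 SE), with no overlap in any of these 3 genes. For Psmb1 it was 0.194, 0.194 and 0.212 against 0.142 and 0.211, overlapping, and for Psmd7 0.0798, 0.0917 and 0.0632 against 0.0636 and 0.0522, overlapping as well.

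**Figure D4:**
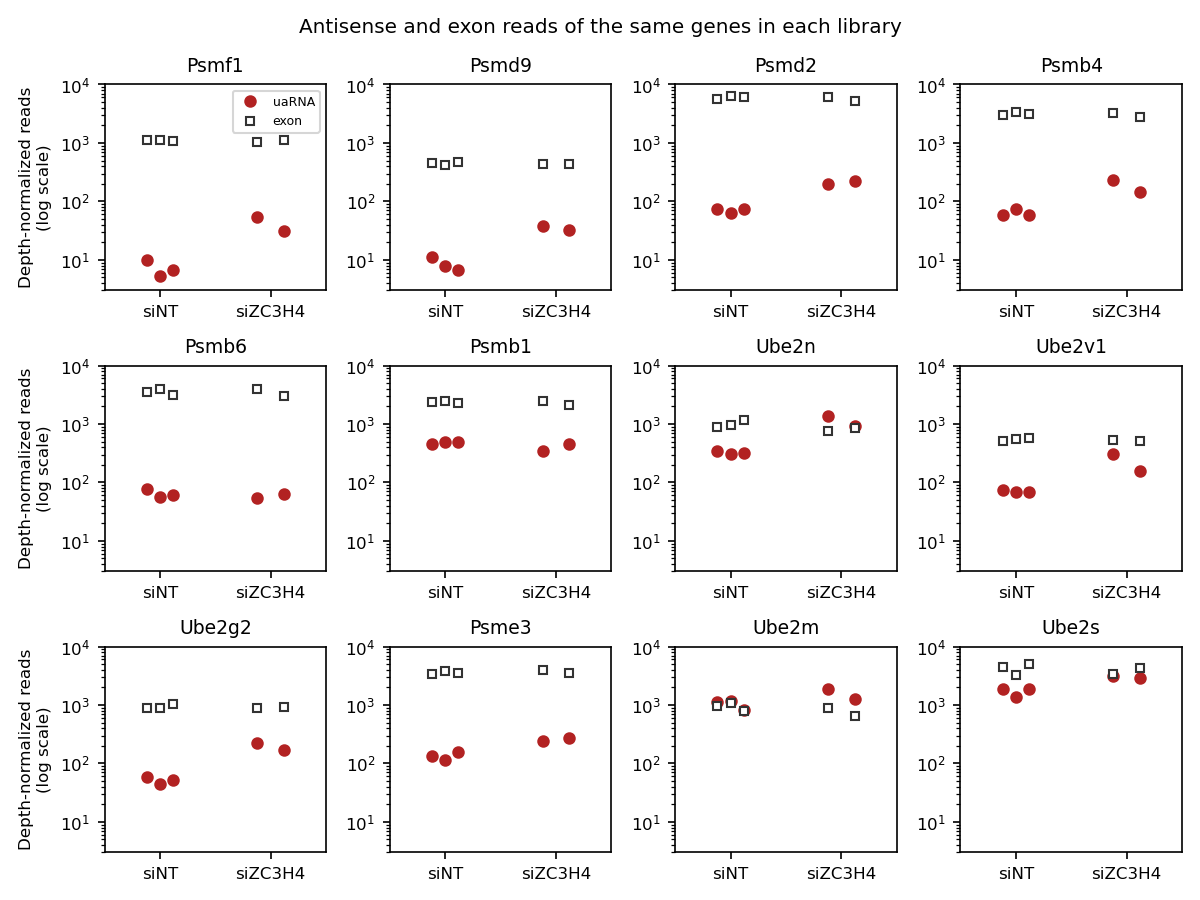
Depth-normalized uaRNA reads (filled circles) and exon reads (open squares) of 12 members in each library (log axis; 3 siNT and 2 siZC3H4 libraries). For 10 of the 12 both siZC3H4 circles lie above every siNT circle while the squares stay near their siNT level. Psmb6 and Psmb1 are the exceptions, and these directions hold for the deposited factors, since Ube2m and Ube2s turn below 0 when the uaRNA table is scaled on itself.

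The members without a uaRNA region often face another gene. Of the 27 without one, 14 (51.9%) had an annotated start of another gene within 1 kb upstream on the opposite strand, against 3 of the 49 with one (6.12%). Over all protein-coding genes the shares were 33.7% and 6.02%. The closest pair was Psma7 with Ss18l1, 32 bases apart. Psmc5 faces Ftsj3, Psmd13 faces Sirt3, Psma2 faces the mitochondrial ribosomal gene Mrpl32 and Psme2 faces Rnf31, and none of these neighbours passed the exon test. Beside Psmg2, Cep76 had 584, 606 and 784 exon reads in siNT and 573 and 690 in the libraries labelled siZC3H4, so it overlapped (log2 -0.05 ± 0.17 SE). Beside Ube2c, the transcript Gm11457 had 599, 656 and 584 reads against 993 and 929, a rise without overlap (log2 0.65 ± 0.13 SE, limma adjusted p = 0.0422). That call was kept without siNT replicate 3 only, with limma adjusted p from 0.0649 to 0.424 without each other library, and was lost by limma without the trend (adjusted p = 0.0677) and with the exon table rescaled (0.0620 by the median of ratios, 0.0612 by TMM). Ube2g1, facing Gm51906, and Ube2v1, facing Gm31852, were among the 3 members with both a uaRNA region and such a start. The uaRNA reads of these 3 could include such transcripts, and the other 43 tested members had a median of 0.82.

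Promoter letters were compared with those of all protein-coding genes, as a description. RefSeq windows of 300 bases, from 250 before to 50 after the start, matched 61 of the 76 members and 9536 protein-coding genes. GC content had a median of 62.0% in both. The antioxidant response element core TGACNNNGC, searched on both strands, was in 16.4% of members' windows and 14.7% of all. The NF-Y box CCAAT, on both strands, was in 26.2% and 39.9%, and the palindromic site of nuclear respiratory factor 1 in 4.92% and 2.35%. Read on the antisense strand upstream of the start, the splice donor GTAAGT was in 3.28% and 1.78% and the poly(A) signal AATAAA in 1.64% and 4.17%. None of these motifs contains another in full, and no test was run on the shares.

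The other genes of the pathway were ubiquitin genes, E1 enzymes, proteasome partners and regulators, the anaphase-promoting complex and cullins. In the exon table, 2 of 53 tested genes rose and 0 fell, near the 2.22% and 0.144% of all genes. They were Anapc13, a small subunit of the anaphase-promoting complex, from 368 ± 24.2 (SD, n = 3) to 595 ± 33.8 (SD, n = 2) reads (log2 0.69 ± 0.15 SE, limma adjusted p = 0.0498), and Cul7, a cullin scaffold, from 609 ± 59.3 to 1192 ± 288 (log2 0.95 ± 0.17 SE, limma adjusted p = 0.0279). Anapc13 kept the call without siNT replicate 3 only, with limma adjusted p from 0.106 to 0.462 without each other library, and lost it by limma without the trend (adjusted p = 0.0603) and with the exon table rescaled (0.0647 by the median of ratios, 0.0677 by TMM). Cul7 lost it without siNT replicate 1 (limma adjusted p = 0.163) or siZC3H4 replicate 2 (0.326), and by limma without the trend (0.0635). Ubb and Rps27a, which encode ubiquitin, were at log2 -0.13 and 0.16, and the regulator gene Nfe2l1 was at -0.05 ± 0.12 SE. In the uaRNA table, 21 of 29 rose and 0 fell under the deposited factors, where 62.1% of all uaRNAs rose. Scaled on itself by either method, the table gave 5 rises and 1 fall among the 29. Over all 5124 uaRNAs it then gave 527 to 548 rises and 576 to 600 falls. The uaRNA of Nfe2l1 rose by log2 1.21 ± 0.23 SE. Median-of-ratios factors taken from the uaRNA table gave 0.32 for it, not past the threshold. Of the uaRNAs of the anaphase-promoting complex, 8 of 9 rose under the deposited factors and 4 on self-scaling. Of those of the proteasome partners, 5 of 8 rose under the deposited factors, and on self-scaling 0 rose and 1 fell.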

How the data were processed

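Nascent RNA was measured by TT-seq in 3 siNT and 2 siZC3H4 libraries. Per the labels' protocols the library kit was stranded. The submitters' processing notes name cutadapt 1.14, STAR, featureCounts and DESeq2 and the builds mm10 and dm6, with no order or settings, so whether counting used strand is not known here. The deposited data are 2 tables of signal normalized for depth by the authors, 1 of exon reads per gene and 1 of uaRNA reads per host gene without coordinates. In both, 100% of values in each library were whole reads, within 0.01, divided by 1 depth factor.

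Each whole table was fitted with limma 3.58.1 (R 4.3.3; lmFit, eBayes with trend) on log2(value + 1), siZC3H4 minus siNT, for features with a mean of 10 or more over the 5 libraries, which kept 75 of 76 members in the exon table and 46 of 49 in the uaRNA table. The ratio was log2(uaRNA + 1) minus log2(exon + 1) of a gene in a library, where both means were 10 or more. Folds on this scale understate changes of low genes. P-values were adjusted by Benjamini-Hochberg over all features tested, with a threshold of 0.05, and "rose" and "fell" mean past it. Intervals are limma's 95% intervals. The fits were also run on simulated data with 200 changed features per table, each as likely to fall as to rise. Since 62.1% of the real uaRNAs rose, that setting differs from the uaRNA table and cannot check its calls. edgeR 4.0.16 and DESeq2 1.42.0 on the recovered reads, other scalings, pseudocounts and filters, a replicate block and leaving out each library were alternatives. Replicates differed by more than counting noise and were kept apart. Named genes were all members past a threshold, the 4 highest and 4 lowest in the exon and uaRNA tables, and members listed by role. The members and lists were chosen with earlier results of these data known. Promoters came from a RefSeq table (GRCm38.p6), where 15 members had no entry. Results that need certain genes are not reported here; those genes stay in the fits and counts.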

Additional observations from a re-analysis of the deposited data

How the results depend on the processing

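The uaRNA calls depended most on the scaling. By the median of ratios computed within it, the uaRNA table gave 4 members that rose and 3 that fell, with a members' median of -0.054 on the log2 scale beside 0.00 over all uaRNAs. By TMM, 6 rose and 3 fell, with medians of -0.035 and 0.02. Of all 5124 uaRNAs, 527 rose and 600 fell by the median of ratios, and 548 rose and 576 fell by TMM. Both scalings assume that most uaRNAs do not differ. They turned these risen members below 0, none of them past the threshold by limma: by the median of ratios Psma1 (-0.095), Psmb3 (-0.072), Psmc3ip (-0.22), Psmc4 (-0.042), Psmd1 (-0.083), Psmd3 (-0.16), Psmd5 (-0.30), Psmg1 (-0.13), Psmg4 (-0.16), Ube2d2a (-0.15), Ube2k (-0.015), Ube2m (-0.30) and Ube2s (-0.065). By TMM these were Psma1 (-0.076), Psmb3 (-0.053), Psmc3ip (-0.20), Psmc4 (-0.024), Psmd1 (-0.065), Psmd3 (-0.14), Psmd5 (-0.28), Psmg1 (-0.11), Psmg4 (-0.15), Ube2d2a (-0.13), Ube2m (-0.29) and Ube2s (-0.046). How the depth factors were obtained is not given in the sources read. The ratio to exon reads needs no factor common to both tables. Other alternatives gave 28 to 32 risen uaRNAs and 0 fallen: pseudocounts of 0.5 and 8, no filter or a minimum mean of 50, limma without the trend, edgeR and DESeq2.

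Leaving out 1 library gave 22 to 31 risen uaRNAs, 10 to 26 risen ratios (10 without siZC3H4 replicate 2), and 0 to 1 exon rises and 0 to 1 exon falls (1 of each without siNT replicate 3). A lone library of a group is assumed there to vary like the others. Replicate numbers 2 and 3 occur in both groups, but the labels do not say that they mark shared cultures. Deviations of same-numbered libraries correlated at 0.53 and 0.62 over genes and 0.38 and 0.43 over uaRNAs, a hint from the data and not the design. A limma fit with a replicate block gave 2 exon rises (Psmg2 and Ube2ql1) and 3 exon falls (Psmb10, Ube2g1 and Ube2n). Over all 12482 genes it gave 1530 rises and 830 falls. It also gave 30 risen uaRNAs and 29 risen ratios among members, and 3183 and 3161 over all features. Its exon test had 12482 degrees of freedom, so its p-values draw on the spread of all genes together. The main uaRNA test, without a block, had 67.5 degrees of freedom, so its p-values draw mostly on the spread of all uaRNAs together. At low reads, as for Psmf1, Psmd9 and Psmb7, counting error widens the intervals.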
